A study of Mus musculus with 9 samples.

Results

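The MHC class II genes of the retina's immune cells were examined through 6 genes: H2-Aa, H2-Ab1 and H2-Eb1, which encode chains of the classical class II molecules I-A and I-E, Cd74, which encodes the invariant chain, and H2-DMa and H2-DMb1, which encode the chains of the peptide exchange factor H2-DM. They were taken by gene symbol from the 27998 genes listed for each library, and all 6 were found (ENSMUSG00000036594, ENSMUSG00000073421, ENSMUSG00000060586, ENSMUSG00000024610, ENSMUSG00000037649 and ENSMUSG00000079547, in that order). Cells labelled CD45+ CD11b+ were sorted from retinas of female Arr1-/- mice a few months old. These mice lack visual arrestin, a protein that shuts off rhodopsin, and their photoreceptors die in constant light. Every mouse was reared in constant darkness, so the day 0 group carried the same deletion as the others and had no light, and the day 7 and day 20 groups had 7 or 20 days of constant light of about 200 lux. There was no group without the deletion, and retinas of several mice went into each time point, so a difference between days cannot be assigned to single animals. Each day had 3 libraries of 10x 3′ single-cell RNA, and nothing in the labels says whether these came from separate mice, so the p-values below measure the spread between libraries, which may be technical.

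Class II molecules carry peptides of engulfed proteins to the cell surface and show them to CD4+ T cells. An alpha and a beta chain pair in the endoplasmic reticulum and bind the invariant chain, which fills the groove and guides the complex to the endosome. There proteases cut the invariant chain down to a short fragment, and H2-DM swaps this fragment for peptide. Transcription of all these genes depends on the co-activator CIITA, which is recruited by factors that sit on a conserved X and Y box just upstream of the start of each gene. Resting microglia, the resident macrophages of the retina, hold little class II, whereas dendritic cells, B cells and many macrophages hold much.

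The libraries shared cell barcodes, and this bears on every value below. The 9 libraries listed 5022 entries of 1365 different barcodes, of which 612 occurred in more than 1 library and 270 in all 9. Each barcode was therefore assigned to 1 library, the one that gave it most unique molecular identifiers (UMIs, each standing for 1 captured RNA molecule), and the entries left aside held 57.3% of the members' UMIs, against 51.7% of all UMIs. After limits on genes and mitochondrial RNA, 728 of 851 cells were retained as myeloid, namely 251 at day 0, 281 at day 7 and 196 at day 20. A library held 16 to 192 retained cells and 19773 to 255360 UMIs in them, and day 7 replicate 3 (16 cells) and day 20 replicate 3 (30 cells) were the smallest. Visual arrestin RNA (Sag) had at most 2 UMIs in any library. Of the cells with no more than 1 classical class II UMI at day 0, 198 of 201 carried a UMI of the microglia list at a common depth of 500 UMIs per cell, against 36 of 58 day 0 cells that were left out and led by rod genes (62.1%). Cx3cr1 is in this list and also in the myeloid list by which cells were retained. The difference was thus partly set by the choice of cells.

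Of the 6 genes, 5 lay within 197 kb of chromosome 17 (GRCm38, GENCODE M21): H2-DMa at chr17:34119541-34139101, H2-DMb1 at chr17:34153072-34160230, H2-Ab1 at chr17:34257689-34269419 and H2-Eb1 at chr17:34305867-34316674 on the plus strand, and H2-Aa at chr17:34282744-34287823 on the minus strand. RefSeq promoter windows (GRCm38.p6, 250 bases before to 50 after a start) were matched by symbol for 4 of the 6 genes, H2-Aa, H2-Eb1, H2-DMa and H2-DMb1. Windows for H2-Ab1 and Cd74 were not used here. The 150 bases before the first listed start are shown for these 4, because 2 of them moved together in light and 2 did not pass the test. Capitals mark the letters searched for on both strands: the X1 box (AGNNAC directly followed by NGATG), the X2 box (TGACGTCA) and the Y box (CCAAT, here mostly found as its reverse complement ATTGG). Each sequence runs 5′ to 3′ on the strand of its gene.

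H2-Aa (chr17:34287824-34287973, minus strand): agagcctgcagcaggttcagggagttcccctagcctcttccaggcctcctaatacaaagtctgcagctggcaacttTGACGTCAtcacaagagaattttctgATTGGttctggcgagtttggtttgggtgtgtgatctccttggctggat
H2-Eb1 (chr17:34305717-34305866, plus strand): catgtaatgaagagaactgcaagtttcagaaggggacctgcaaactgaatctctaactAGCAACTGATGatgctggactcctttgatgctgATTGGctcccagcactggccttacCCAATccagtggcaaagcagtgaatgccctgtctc
H2-DMb1 (chr17:34153041-34153190, plus strand): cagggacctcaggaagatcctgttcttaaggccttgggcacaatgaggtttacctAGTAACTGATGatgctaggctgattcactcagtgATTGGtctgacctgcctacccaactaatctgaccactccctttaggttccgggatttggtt
H2-DMa (chr17:34122682-34122831, plus strand): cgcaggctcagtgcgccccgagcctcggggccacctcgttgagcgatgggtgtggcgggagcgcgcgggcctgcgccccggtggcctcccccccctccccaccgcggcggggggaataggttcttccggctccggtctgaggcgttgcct

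The window of H2-Eb1 held an X1 box beginning 92 bases upstream of the start and an inverted Y box at 59 bases, and that of H2-DMb1 held the same order at 95 and 61 bases. In H2-Aa, whose window had no match to the X1 letters, an X2 box began at 74 bases and an inverted Y box at 48. The first window of H2-DMa held none of the 3 motifs, and a second window of this gene, not printed, held a single inverted Y box 198 bases upstream. Both starts (34122832 and 34125518) lie inside the span of H2-DMa given above, which begins at 34119541. The bases before that position were not searched, so the lack of a match does not show that the gene has no X box. Among 32851 promoter windows of the same length, 0.968% held an X1 box, 1.79% an X2 box, 37.4% a Y box and 1.02% a Y box together with an X1 or X2 box. A match describes these letters only and is not evidence of binding.

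The classical chains rose many-fold after light. H2-Aa, the alpha chain of I-A, had 20, 17 and 8 UMIs at day 0 in replicates 1 to 3, 886, 171 and 91 at day 7, and 182, 155 and 58 at day 20. Scaled to all UMIs in the retained cells of a library (counts per 1000000, CPM) these were 123, 88.5 and 97.9 at day 0, 3470, 1678 and 4602 at day 7, and 2320, 976 and 1557 at day 20, so every library after light lay above every library at day 0. The log2 change from day 0 was 5.07 ± 0.45 (SE) at day 7 (edgeR quasi-likelihood, Benjamini-Hochberg adjusted p = 4.9e-06) and 3.99 ± 0.44 at day 20 (edgeR adjusted p = 0.000201). Here and below, each change was fitted over the 9 libraries and adjusted over 1426 genes tested.

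H2-Ab1, the beta chain that pairs with it, had 129, 83.3 and 232 CPM at day 0, 4186, 1531 and 8598 at day 7, and 2575, 970 and 2282 at day 20. The groups did not overlap between day 0 and either later day, and the highest value came from day 7 replicate 3, the library of 16 cells. Its log2 change was 5.19 ± 0.61 at day 7 (edgeR adjusted p = 3e-05) and 3.83 ± 0.59 at day 20 (edgeR adjusted p = 0.00212).

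H2-Eb1, the beta chain of I-E, stood at 55.2, 83.3 and 269 CPM at day 0, at 3305, 1354 and 3945 at day 7, and at 2142, 718 and 1557 at day 20. Again no library after light reached down to the day 0 range, and replicate 2 was the lowest of its day at both later times. The log2 change was 4.68 ± 0.58 at day 7 (edgeR adjusted p = 4.34e-05) and 3.64 ± 0.57 at day 20 (edgeR adjusted p = 0.00212). H2-Ea, the gene of the I-E alpha chain, had no row under that symbol. The rise of H2-Eb1 RNA therefore does not show whether the I-E molecule was made.

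Cd74, whose product is both the class II chaperone and a surface receptor for the cytokine MIF, rose with them. The gene lies apart from the others, on chromosome 18 (GRCm38, chr18:60803848-60812652, plus strand). It had 350, 364 and 1725 CPM at day 0, 12672, 5535 and 24326 at day 7, and 7790, 3268 and 8187 at day 20. Day 0 replicate 3 was well above the other two, and 105 of its 141 Cd74 UMIs lay in 1 cell, but it stayed below all 6 libraries after light. The log2 change was 4.33 ± 0.64 at day 7 (edgeR adjusted p = 0.00016) and 3.10 ± 0.61 at day 20 (edgeR adjusted p = 0.00982). Without day 0 replicate 1, the change at day 20 was 2.60 and missed the threshold (edgeR adjusted p = 0.0579).

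The 2 H2-DM genes did not pass the test on either day. H2-DMa had 233, 380 and 367 CPM at day 0, 431, 118 and 455 at day 7, and 255, 340 and 591 at day 20, so the 3 days overlapped. Its log2 change was 0.11 ± 0.43 at day 7 (edgeR adjusted p = 0.871) and 0.24 ± 0.42 at day 20 (edgeR adjusted p = 0.811), and the direction turned when single libraries were left out. H2-DMb1 had 172, 141 and 97.9 CPM at day 0, 270, 118 and 708 at day 7, and 229, 195 and 295 at day 20. Its 3 values at day 20 were all above day 0, while day 7 replicate 2 was within the day 0 range, and the log2 changes of 1.13 ± 0.47 at day 7 and 0.74 ± 0.48 at day 20 did not pass (edgeR adjusted p = 0.0897 and 0.464). Without day 7 replicate 2 the change at day 7 was 1.62 and passed (edgeR adjusted p = 0.0198). H2-DMb1 has a near-identical neighbour, H2-DMb2, with 27 UMIs in all, and how reads common to both were counted is not given in the sources used here.

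**Figure D1:**
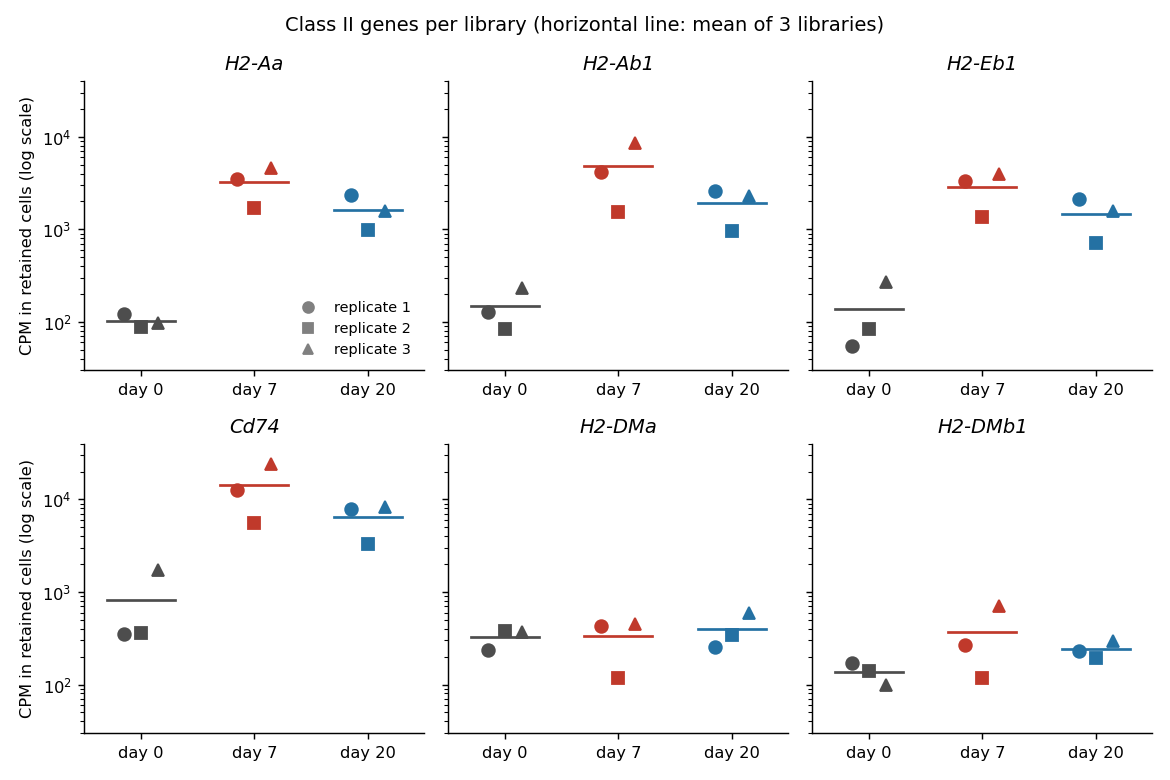
Level of each of the 6 genes (CPM over the retained cells, log scale) in each of the 9 libraries, by day of light, with the replicate as the marker shape and the mean of 3 libraries as a line. H2-Aa, H2-Ab1, H2-Eb1 and Cd74 have no overlap between day 0 and the later days, whereas H2-DMa lies between 118 and 591 CPM over all days. The share of all genes without such overlap is not given.

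Thus 4 of the 6 genes were called higher at day 7 and the same 4 at day 20, where 10.3% and 1.19% of all genes tested were called higher (26.4% and 2.59% in either direction). For the mean of both days against day 0, the same 4 passed, with log2 changes of 4.53 ± 0.43 for H2-Aa, 4.51 ± 0.57 for H2-Ab1, 4.16 ± 0.54 for H2-Eb1 and 3.71 ± 0.60 for Cd74 (edgeR adjusted p at most 0.000444), and 5.26% of all genes were called higher (19.1% either way). The median log2 change over the 6 genes was 3.94, against −0.03 over all genes tested. The share of all genes tested whose libraries did not overlap between these days is not given here. The lack of overlap in these 4 genes therefore only describes their values. In the entries as deposited, in which a barcode counts in each library that lists it, the log2 changes of these 4 genes after light shrank to 1.19 to 1.36. They still passed there for the mean of both days and at day 7, but not at day 20, where 0 of the 6 genes were called (edgeR adjusted p 0.235 to 0.280 for the 4 genes). Without the 2 libraries under 50 cells, the 4 genes passed in all 3 comparisons with day 0.

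Between day 20 and day 7, all 4 genes had lower fitted levels at day 20, and none passed the test. The log2 change was −1.07 ± 0.37 for H2-Aa, −1.36 ± 0.50 for H2-Ab1, −1.04 ± 0.48 for H2-Eb1 and −1.23 ± 0.56 for Cd74 (edgeR adjusted p 0.121 to 0.284). The values of the 2 days overlapped for each of them. Of the 6 genes 0 were called by edgeR, where 5.54% of all genes were called either way (1.19% lower). DESeq2 also called 0 of them, against 75 of 1426 genes tested. In edgeR 4 of the 6 had an unadjusted p under 0.05, as did 239 of the 1426 genes tested. Without day 7 replicate 2, H2-Aa and H2-Ab1 passed as lower at day 20 (log2 −1.41 and −1.79, edgeR adjusted p = 0.0451 and 0.0326). The order of the mean levels was day 0, day 20, day 7 in these 4 genes, and the steps from day 0 passed the test.

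**Figure D2:**
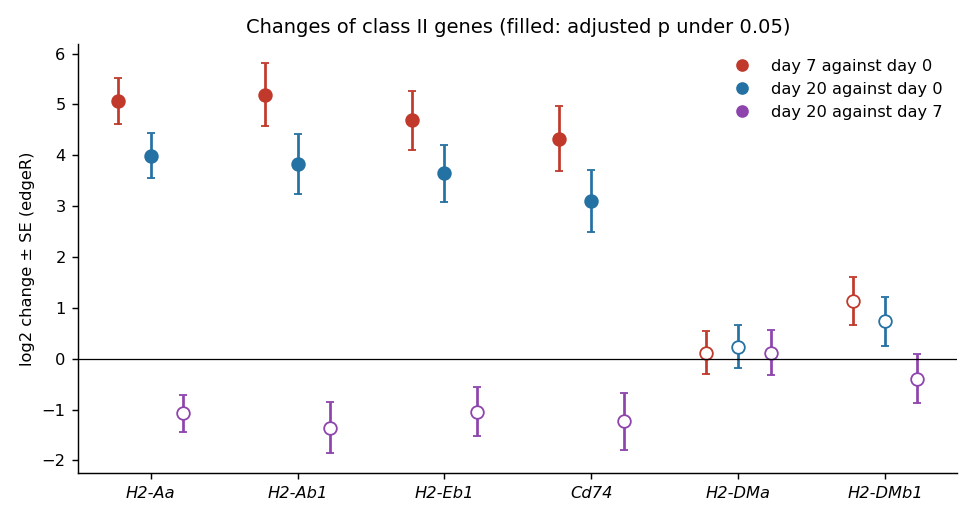
Log2 change (edgeR) of each gene at day 7 and day 20 against day 0 and at day 20 against day 7, with its standard error and filled points for an adjusted p under 0.05. The 4 genes of the classical chains and Cd74 lie between 3.10 and 5.19 against day 0, and the points for day 20 against day 7 are all open.

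Sums over a library cannot tell more cells with class II from more RNA per cell, so cells were compared at a common depth. Each cell was thinned to 500 UMIs, which left out 45 of 251 cells at day 0 and 79 of 477 after light that were shallower, and a cell with at least 2 UMIs of H2-Aa, H2-Ab1 and H2-Eb1 together was called positive. Positive cells made up 1 of 73, 2 of 88 and 2 of 45 cells at day 0, or 1.37%, 2.27% and 4.44%. They were 40.6%, 23.2% and 45.5% of 170, 69 and 11 cells at day 7, and 31.9%, 15.8% and 20.0% of 47, 76 and 25 cells at day 20. Positive cells were thus more frequent in each of the 6 libraries after light than in any at day 0.

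At day 0 the mean share was 2.70% ± 1.58 (SD, n = 3), at day 7 it was 36.4% ± 11.7, and at day 20 it was 22.6% ± 8.36. The mean of the 6 libraries after light was 26.8 percentage points above day 0 (two-sided exact permutation test over libraries, p = 0.0238, where 3 against 6 cannot go below 0.0119), and it was 10.5 points above in the entries as deposited (exact permutation p = 0.0238). Day 20 differed from day 7 by −13.8 points, with overlapping libraries (exact permutation p = 0.2, where 3 against 3 cannot go below 0.1). Without thinning, 3.85% to 5.66% of retained cells had at least 2 of these UMIs at day 0 and 26.7% to 57.8% after light.

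Free RNA in a droplet can give UMIs to cells that do not make them. The cells that were not retained are given here for comparison, but they are not a clean measure of free RNA. A UMI of the microglia list was found in 55 of 93 of them (59.1%), and the lists used to leave cells out include lymphocyte genes. Whether their class II UMIs were their own was not tested. Of the cells left out as not myeloid that reached 500 UMIs, 1 of 66 was positive at day 0 (1.52%) and 4 of 27 after light (14.8%, 95% Wilson interval 5.92% to 32.5%), against 2.43% and 30.7% of retained cells. Among those led by rod genes, which should hold no class II, 0 of 58 were positive at day 0 and 1 of 9 after light. The day 0 shares of retained and left-out cells rest on 5 and 1 positive cells. The 5 retained ones held 5 to 28 classical UMIs and 5 to 92 Cd74 UMIs per 500, and 193 of the 206 cells held no classical UMI. After light 10 of the 27 cells left out (37.0%) had at least 1 classical UMI, near the 52.0% of retained cells, so a single UMI says little about a cell. The median UMI counts before thinning were 1051 in the retained cells and 1419 in those left out.

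Within positive cells, a difference in the amount of class II between light and darkness was not shown. The 5 positive cells at day 0 held 16, 6 and 16.5 classical UMIs per 500 on average in replicates 1 to 3. The libraries of day 7 held 8.17, 10.2 and 11, and those of day 20 held 15.4, 15.5 and 11.6. The mean after light differed from day 0 by −0.85 UMIs (exact permutation p = 0.75), a value that rests on 5 cells and turned sign with the limit for a positive cell. Day 20 was 4.36 UMIs above day 7 with no overlap between the libraries (exact permutation p = 0.1, the smallest that 3 against 3 can give), and the 2 replicates numbered 3 rest on 5 positive cells each. This separation depended on the settings. The gap was 2.18 UMIs with a limit of 1 UMI (exact permutation p = 0.3) and 2.52 without thinning (exact permutation p = 0.2).

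**Figure D3:**
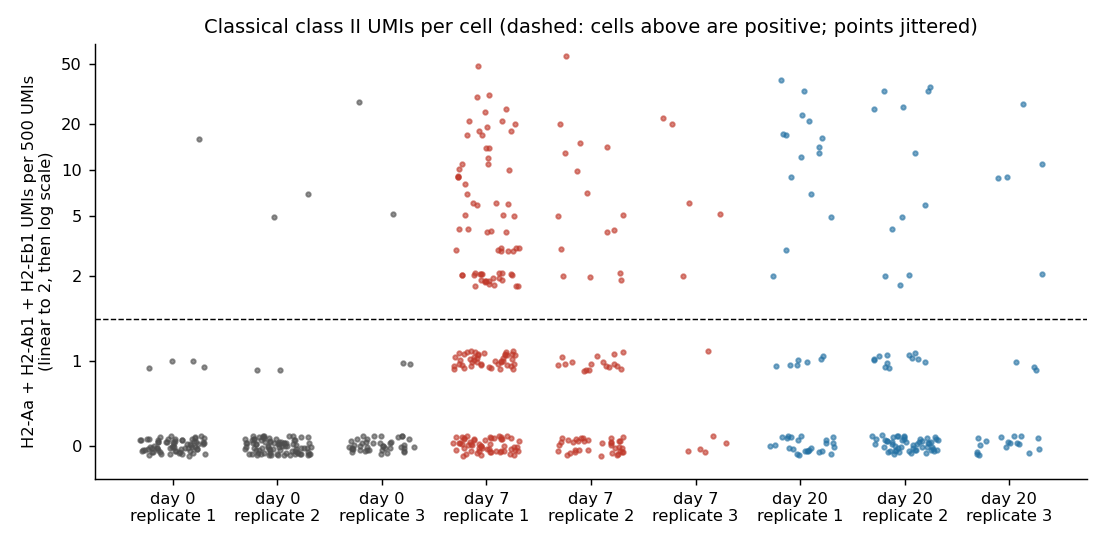
UMIs of H2-Aa, H2-Ab1 and H2-Eb1 per 500 UMIs in each retained cell, by library (linear to 2, then log scale, points jittered), where cells above the dashed line were called positive. Day 0 has 5 such cells in all, and the libraries after light have 5 to 69 each.

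A few cells carried much of the class II RNA. At day 7, 8 of 281 cells held at least 50% of the 3603 classical UMIs, and at day 20, 9 of 196 cells held as much of the 1176. In day 7 replicate 3, 1 cell held 203 of the 339 classical UMIs and 332 of the 481 Cd74 UMIs, and in day 20 replicate 3, 1 cell held 116 of 201. Of the thinned cells after light, 46 of 398 (11.6%) had 10 or more classical UMIs per 500, whereas 191 (48.0%) had none. No doublet caller was run on these data, so droplets with 2 cells may be among those with the most UMIs. Positive cells after light had a median of 1231 UMIs before thinning and negative cells 982.

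The classical chains tended to be found in the same cells. After light, H2-Ab1 was detected in 69.7% of the 122 cells with H2-Aa and in 25.0% of those without, at 500 UMIs per cell. H2-Eb1 was detected in 66.4% of cells with H2-Aa and in 11.2% of the others. In the other direction, H2-Aa was detected in 55.2% of the 154 cells with H2-Ab1 and in 15.2% of those without. The part of free RNA in these shares was not tested. Among classical UMIs, H2-Aa made up 26.8% to 36.8% in the 6 libraries after light, H2-Ab1 33.5% to 50.1% and H2-Eb1 23.0% to 30.4%. The ranges at day 0 were wider, with 49 or 50 classical UMIs per library, and H2-Aa made up between 16.3% (95% Wilson interval 8.51% to 29.0%) and 40.0% (27.6% to 53.8%).

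Cd74 was found more often in cells with more classical UMIs. After light a Cd74 UMI was found in 39.3% of 191 cells without classical UMIs, in 43.5% of 85 cells with 1, in 73.1% of 52 with 2 to 4, in 95.8% of 24 with 5 to 9 and in all 46 with 10 or more. Its mean over the same classes went from 0.58 to 23.8 UMIs per 500. Cells without classical UMIs differed by day: a Cd74 UMI was found in 13 of 193 (6.74%) at day 0 against 43 of 97 (44.3%) at day 7 and 32 of 94 (34.0%) at day 20. Whether these UMIs came from the cells themselves or from free RNA was not tested.

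H2-DM was also more abundant in the cells with class II, although its level per library did not pass the test. H2-DMa was detected in 7.33% of cells after light without classical UMIs and in 34.8% of those with 10 or more, and H2-DMb1 in 7.85% and 26.1%. In the 6 libraries after light, the summed level of both genes was 402 to 2249 CPM in positive cells and 170 to 735 CPM in negative cells, where CPM leave out the UMIs of the 6 genes. Positive cells were higher in 6 of 6 libraries, by a mean log2 difference of 1.72 ± 0.66 (SD, 50 CPM added to each value, exact sign-flip permutation p = 0.0312, the smallest that 6 libraries can give). In the entries as deposited the difference was 1.80 (exact permutation p = 0.0312). Cd74 differed by 4.54 ± 0.75 in the same way, again in 6 of 6 libraries and with the same p. Both comparisons were chosen after the values had been seen, and the cells were split on genes of the same 6. Their p-values therefore only describe these libraries. The part of free RNA and of droplets with 2 cells in these differences was not tested.

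**Figure D4:**
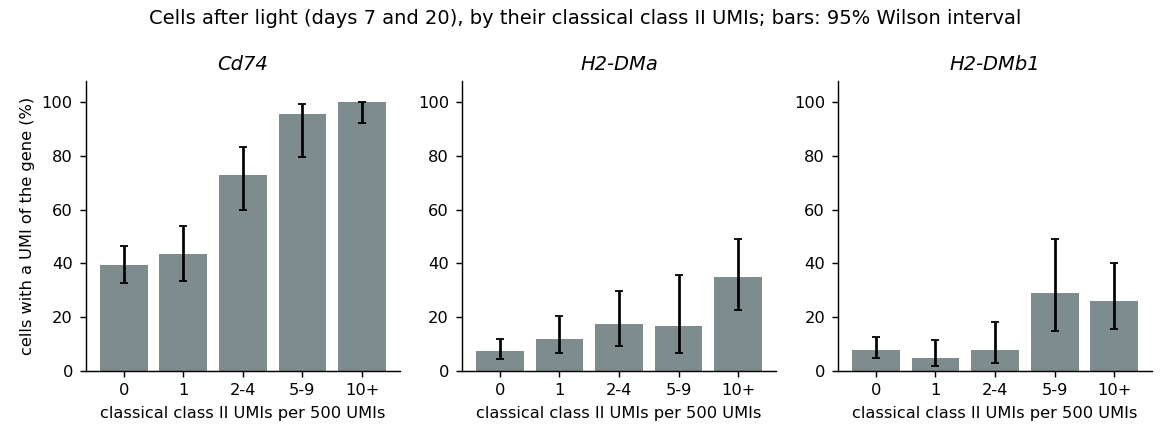
Percentage of cells after light with a UMI of Cd74, H2-DMa or H2-DMb1, for cells with 0, 1, 2 to 4, 5 to 9 and 10 or more classical class II UMIs per 500 (191, 85, 52, 24 and 46 cells), with 95% Wilson intervals that cover counting error only. Cd74 goes from 39.3% to 100% of cells, H2-DMa from 7.33% to 34.8%.

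At day 0, H2-DMa was detected in 21 of 193 cells without classical UMIs (10.9%) and H2-DMb1 in 11 (5.70%), and after light in 14 and 15 of 191 such cells. H2-DMa and H2-DMb1 together made up 38.2%, 45.7% and 16.7% of the UMIs of the 6 genes at day 0, against 2.28% to 2.88% at day 7 and 3.16% to 8.28% at day 20. This share has to fall when the classical chains and Cd74 rise, so it is given without a test and is no separate evidence on H2-DM.

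Cd74 took 32.9%, 31.96% and 61.8% of the UMIs of the 6 genes at day 0, 52.1% to 57.1% at day 7 and 50.5% to 56.6% at day 20. The difference of 11.2 points after light did not pass the test (exact permutation p = 0.119), and day 0 replicate 3, with most of its Cd74 UMIs in 1 cell, lay above all others. Without that library the difference was 20.99 points (exact permutation p = 0.0357). H2-DM is part of the same total, so this share also moves when that of H2-DM falls. Neither p-value is separate evidence on Cd74. Relative to the classical chains, day 0 libraries had 1.82 ± 0.93 Cd74 UMIs per classical UMI (SD, n = 3), those of day 7 had 1.26 ± 0.14, and those of day 20 had 1.28 ± 0.21. By this ratio no gain of Cd74 over the classical chains was seen.

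**Figure D5:**
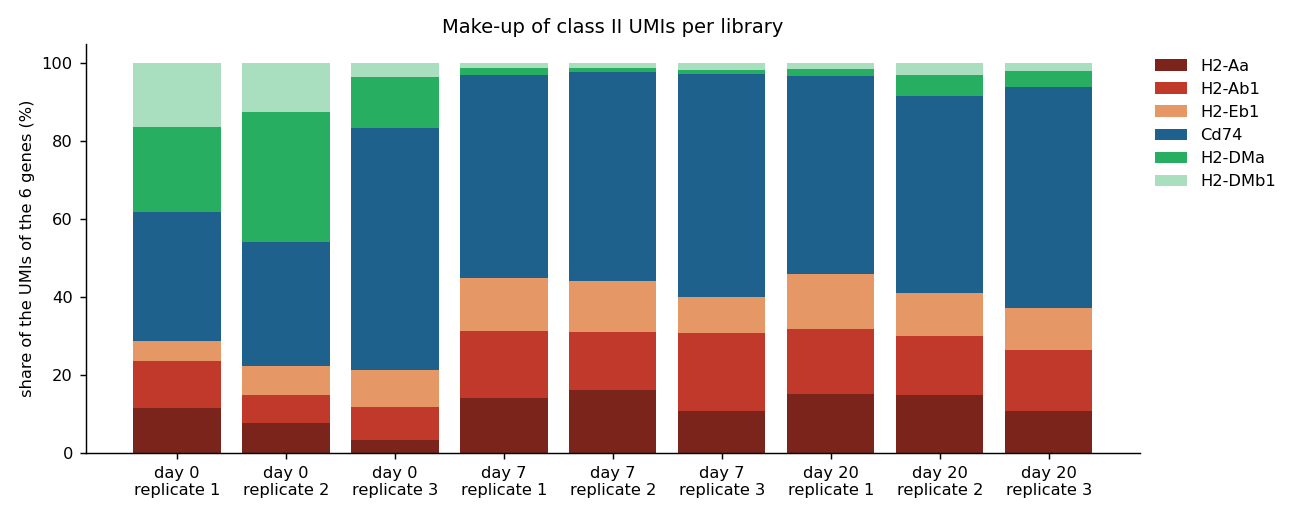
Share of each gene in the UMIs of the 6 genes, in percent, for each of the 9 libraries. H2-DMa and H2-DMb1 together hold 16.7% to 45.7% at day 0 and 2.28% to 8.28% after light.

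At 500 UMIs per cell, 91 of 122 positive cells after light (74.6%) and 232 of 276 negative cells (84.1%) had a UMI of the microglia list. So did 13 of the 27 cells after light that were left out as not myeloid (48.1%), so a single UMI of this list does not mark a microglial cell. Over all UMIs of these cells, Sparc, a matrix protein that microglia express, stood at 356 CPM in positive and 1123 CPM in negative cells and was lower in positive cells in 5 of 6 libraries. P2ry12, the purinergic receptor of resting microglia, was detected after light in 18 of 191 cells without classical UMIs (9.42%). It was found in 2 of 85 cells with 1 (2.35%), 5 of 52 with 2 to 4 (9.62%) and 1 of 24 with 5 to 9 (4.17%). In cells with 10 or more it was found in 0 of 46, which allows up to 6.52% of cells with a UMI. P2ry12 did not fall steadily over these classes. It was detected in 34.7% of day 0 cells without classical UMIs, so a lack of its UMI at this depth does not show that a cell lacks its RNA.

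None of 9 marker lists passed the test between positive and negative cells once adjusted, which 6 libraries allow only if at least 6 lists reach the smallest possible p of 0.0312. The sum of the 10 genes of the microglia list was lower in positive cells in 5 of 6 libraries, with a log2 difference of −0.85 ± 0.75 (SD, exact sign-flip permutation p = 0.0625, adjusted p = 0.402), with summed levels of 2840 to 6207 CPM in positive and 4355 to 13369 CPM in negative cells. The activated microglia list was higher in 5 of 6 libraries by 0.78 ± 0.76 (exact permutation p = 0.0938, adjusted p = 0.402), and Apoe, a lipid carrier that forms most of its UMIs, stood at 91011 and 62972 CPM. Of its 9 genes 6 had lower CPM in positive cells, among them Trem2, a lipid receptor (1130 against 1676 CPM), Spp1, the matrix protein osteopontin (234 against 1016 CPM), and Gpnmb (111 against 316 CPM), and Trem2, Gpnmb, Fabp5 and Cst7 were higher in positive cells in 0 of 6 libraries. The 3 genes with higher CPM in positive cells were Apoe, Axl and Itgax. Axl stood at 295 against 157 CPM and was higher in 5 of 6 libraries. Itgax had 10 UMIs in positive and 6 in negative cells and was higher by CPM in 4 of 6 libraries. The direction of the sum is that of Apoe, which holds most of the UMIs. By day, the activated microglia list differed by −0.30, 0.05 and 0.76 in the libraries of day 7 and by 1.33, 1.56 and 1.30 in those of day 20. The macrophage list was led by Lyz2 (lysozyme, 6544 and 5484 CPM, higher in 3 of 6 libraries) and Ms4a7 (807 and 367 CPM, higher in 5 of 6 libraries). Lyz2 held 1176 UMIs in positive and 2343 in negative cells. Ms4a7 held 145 and 157, and the other 5 genes together 170 and 351. The sum of this list thus mostly follows Lyz2, which is also in the myeloid list by which cells were retained. The CPM of single genes pool both days, and 90 of 122 positive and 160 of 276 negative cells were from day 7. The macrophage list differed by 0.34 ± 0.71 over both days. Its difference was −0.14, −0.36 and −0.31 in the libraries of day 7 and 1.28, 0.93 and 0.65 in those of day 20. Relative to negative cells, positive cells had the lower level at day 7 and the higher at day 20 (exact permutation p = 0.1 for the difference between days, the smallest that 3 against 3 can give). Negative cells stood at 9730.5, 11945 and 7436 CPM at day 7 and at 2722, 2681 and 5516 at day 20. Positive cells overlapped between the days, with 8803, 9289 and 5975 CPM and then 6688, 5164 and 8686.

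Markers of the other cells that hold class II were few. B and T cell genes, Cd79a, Cd79b and Ms4a1 among them, were also in a list used to leave cells out as not myeloid. Their counts in retained cells were thus limited beforehand and do not show whether such cells were in the retina. Of the monocyte list, Ccr2, the chemokine receptor of classical monocytes, had 13 UMIs in positive and 6 in negative cells. Plac8 had 25 UMIs in 6 positive cells and 8 in negative cells. By CPM, Ccr2 was higher in positive cells in 4 of 6 libraries and Plac8 in 1 of 6. Positive cells of day 7 replicate 1 held 34 UMIs of the list, and those of each other library after light 0 to 4. The list differed by 0.76 ± 1.37 (adjusted p = 0.402, exact permutation). The summed dendritic cell list lay between 0 and 297 CPM in positive and between 63.8 and 639 CPM in negative cells, with Fscn1 at 12 and 61 UMIs and Ccr7 at 1 and 46. These 2 genes set the direction of the sum. The other 7 genes of the list together had 25 UMIs in the 122 positive cells and 2 in the 276 negative cells: Cd209a was at 0, Flt3 (8 UMIs in 3 cells), Clec9a (4 UMIs in 3 cells), Xcr1 (2 UMIs) and Zbtb46 (2 UMIs) were found in positive cells and not in negative ones, and Itgae had 5 and 1 UMIs and Clec10a 4 and 1. The B cell list lay between 0 and 97.9 CPM in positive and between 0 and 1487 CPM in negative cells, with Cd79a at 0, Ms4a1 at 2 UMIs in all, and Cd79b at 2 and 13 UMIs.

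Negative cells were more numerous (276 against 122 positive cells), so CPM are given here beside the UMIs. The border macrophage list marks macrophages of vessels and membranes. Cd163, Lyve1 and Cbr2 were at 0, Mrc1 at 1 and 3 UMIs (5.56 and 7.02 CPM) and Pf4 at 3 and 9 (16.7 and 21.1 CPM). The list lay between 0 and 196 CPM in positive and between 0 and 147 CPM in negative cells. Its log2 difference was 0.01 ± 1.56. T and NK cell genes differed by −0.52 ± 0.97 and neutrophil genes by 0.48 ± 0.75 (adjusted p at least 0.402 for each, exact permutation). Cd3g had 7 and 12 UMIs (39.0 and 28.1 CPM, higher in positive cells in 1 of 6 libraries). Nkg7 had 4 and 23 (22.3 and 53.8 CPM). S100a8 had 1 and 8 UMIs (5.56 and 18.7 CPM). Csf3r had 13 and 25 (72.3 and 58.5 CPM, higher in positive cells in 4 of 6 libraries). The part of these cells in the class II levels was not tested beyond these values.

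Of 42 other genes of the class II route with a row, 14 had enough UMIs to be tested. For the mean of both days against day 0, 3 of the 14 were called higher and 1 lower, with a median log2 change of 0.04, where 5.26% of all genes were called higher and 13.9% lower. At day 7 there were 3 higher and 3 lower (10.3% and 16.1% of all genes), and at day 20 there was 1 higher and 0 lower (1.19% and 1.40%).

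Among the proteases and endosomal genes, Cd63, a membrane protein of the peptide-loading endosome, rose by 1.96 ± 0.29 at day 7 and by 1.60 ± 0.29 at day 20 (edgeR adjusted p = 0.00016 and 0.00533), from 307 to 387 CPM at day 0 to 809 to 1433 CPM after light. Ctsb, the protease cathepsin B, rose by 1.18 ± 0.26 at day 7 (edgeR adjusted p = 0.00381) and stood at 0.44 ± 0.26 at day 20. In the other direction, Lgmn, a protease that cuts the invariant chain and antigens, fell by 1.04 ± 0.26 at day 7 (edgeR adjusted p = 0.00948), and Ctsl, cathepsin L, fell by 0.92 ± 0.30 (edgeR adjusted p = 0.0319), on the log2 scale. Ctss, cathepsin S, which makes the last cut of the invariant chain in myeloid cells, had a log2 change of −0.16 ± 0.18 after light and did not pass (edgeR adjusted p = 0.574).

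Mif, the ligand of the Cd74 receptor, rose by 1.31 ± 0.34 at day 7 (edgeR adjusted p = 0.0109) and stood at 0.88 ± 0.35 at day 20. Icam1, an adhesion molecule that holds T cells to the presenting cell, had 387, 500 and 465 CPM at day 0, 23.5, 39.3 and 101 at day 7, and 612, 246 and 53.7 at day 20. It fell at day 7 by 3.55 ± 0.63 on the log2 scale (edgeR adjusted p = 0.000667) and from day 7 to day 20 it rose again by 3.13 ± 0.65 (edgeR adjusted p = 0.0117), the single gene of the 14 called there, where 4.35% of all genes were called higher. Cd86, the co-stimulatory ligand of CD28, had a log2 change of 0.24 ± 0.55 after light (edgeR adjusted p = 0.802).

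The regulators themselves were near the limit of detection. Ciita, the master co-activator of class II genes, had 3 UMIs over all retained cells, all in day 7 replicate 1, and none of the 8 genes of class II transcription could be tested. Of the inhibitory H2-DO chains, H2-Oa had 0, 10 and 7 UMIs at day 0, 22, 2 and 0 at day 7, and 4, 5 and 5 at day 20, and H2-Ob had 9, 7 and 4, then 11, 6 and 0, then 3, 2 and 0. Neither could be tested, and no direction over the days is visible in these counts. The 3 genes of interferon gamma signalling that were tested, Ifngr1, Ifngr2 and Jak1, did not pass in any comparison, with log2 changes after light of −0.48 ± 0.35, 0.27 ± 0.38 and −0.90 ± 0.42.

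The genes whose level followed the summed members most closely over the 9 libraries were ranked by Pearson correlation of log2(CPM + 1). The 8 highest were Cxcl16 (r = 0.96), Arpc3 (0.94), Apoc1 (0.94), Aldh2 (0.94), Apoe (0.93), Ms4a6c (0.93), Axl (0.91) and Shfm1 (0.90). These are a membrane-bound chemokine, an actin-branching subunit, apolipoproteins, an aldehyde dehydrogenase, a membrane protein of the MS4A family, a receptor tyrosine kinase for dying cells and a small proteasome subunit. The 9 libraries fall into days and share their totals, so these values describe the libraries and carry no test. Of the members themselves, H2-Ab1, H2-Eb1 and Cd74 each had r = 0.99 with the sum that contains them and H2-Aa 0.96, whereas H2-DMb1 had 0.71 and H2-DMa 0.21.

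At day 20 alone, the time farthest from the loss of photoreceptors, 32 of 148 thinned cells were positive. A UMI of the microglia list was present in 26 of these 32 cells (81.2%) and in 105 of the 116 negative cells (90.5%), where the share among cells left out after light was 48.1%. Presence of a UMI hides a difference in level. In replicates 1 to 3 the list stood at 5127, 5414 and 5791 CPM in positive and 13369, 11640 and 10481 CPM in negative cells. The mean log2 difference was −1.11 ± 0.26 (SD) at day 20, against −0.59 ± 1.06 at day 7. The list shares Cx3cr1 with the myeloid list by which cells were retained, so the gap to the cells left out was partly set beforehand.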

How the data were processed

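Sorted CD45+ CD11b+ retinal cells were sequenced as 10x 3′ version 2 libraries, 3 each at days 0, 7 and 20. The authors ran Cell Ranger (mm10 per the labels; version not given in the sources used here) and deposited raw UMI counts per gene and barcode, with no normalization. Each barcode was kept in the library with its highest UMI total. Cells with at least 200 genes, under 10% mitochondrial UMIs, at least 3 UMIs of a myeloid list and more of these than of all non-myeloid lists together were retained. The non-myeloid lists include lymphocyte genes. UMIs were summed per library and tested with edgeR 4.0.16 in R 4.3.3 (quasi-likelihood, TMM, low genes filtered by day, 9 libraries in one fit, Benjamini-Hochberg adjustment at 0.05). The standard error is the log2 change divided by the square root of F. The study itself compared cells with Seurat's Wilcoxon test, in which cells of 1 library count as replicates, so libraries were tested here instead. Shares and levels per cell used exact permutation tests over libraries (scipy 1.17.1), after thinning each cell to 500 UMIs. CPM are UMIs per 1000000 UMIs of the retained cells. Libraries held 247290 to 441678 UMIs before any filter. Wilson intervals are at 95% and cover counting error only, and the limit for a count of 0 is 3 counts.

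The titles give the time in hours and the treatment labels in days, and days were used. The members and gene lists were chosen with earlier results of these data known. Besides the 6 members, the text names pathway genes called in at least 1 comparison and Ciita, the 8 genes most like the summed members, and the 2 genes with most UMIs of each marker list, of which 1 is not reported here. H2-Oa, H2-Ob, Ctss, Cd86, the interferon receptors, P2ry12 and the other named genes of the marker lists were named after their values were seen. The marker lists hold 4 genes without a row (Ighm, Igkc, Trac and Trbc2). In the pathway lists, the symbols H2-Ea, H2-Ea-ps, Marchf1 and Marchf8 had no row, while March1 and March8 had one. Alternatives were DESeq2 1.42.0, its size factors in edgeR, no filter on low counts, all deposited entries, all cells within the limits, a limit of 100 genes, a replicate block, other limits for a positive cell, and leaving out each library. The scripts were tested on simulated data. Same-numbered libraries had correlations of their deviations from the day means of −0.04 to 0.15.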

Additional observations from a re-analysis of the deposited data

Results flagged for a closer look

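Class II RNA was also present in the 43 cells after light that were left out as not myeloid, in 81779 UMIs. H2-Aa stood there at 281 CPM (23 UMIs in 9 cells), H2-Ab1 at 538 CPM (44 UMIs in 18 cells) and H2-Eb1 at 355 CPM (29 UMIs in 12 cells). The 80 cells left out at day 0 held 51.1, 102 and 85.1 CPM of these genes, mostly in 1 cell with 25 of 28 classical UMIs. These levels call for a closer look because the cells entered none of the main tests. They entered only the alternative with all cells and the shares set beside retained cells above. The source of their class II RNA was not tested.

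The summed macrophage list, of which Lyz2 held most UMIs, differed between positive and negative cells with opposite signs at the 2 later days. Negative cells stood at 7436 to 11945 CPM at day 7 and at 2681 to 5516 at day 20, while positive cells overlapped between the days (5975 to 9289 and 5164 to 8686 CPM). All 3 libraries of day 7 had the lower level in positive cells (mean log2 difference −0.27 ± 0.11, SD) and all 3 of day 20 the higher (0.95 ± 0.32), a difference between days of 1.23 (exact permutation p = 0.1, the smallest that 3 against 3 can give). The activated microglia list shifted by as much, from 0.17 ± 0.54 (SD) at day 7 to 1.40 ± 0.15 at day 20. That difference was also 1.23 (exact permutation p = 0.1), but its day 7 libraries did not share a sign. The comparison between days was made after the values had been seen, for 9 lists, H2-DM and Cd74, and the cause was not tested.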

How the results depend on the processing

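Each library held few cells, barcodes were shared between libraries, and day 0 held 5 positive cells, which limits every value per cell. The calls of the 4 genes that rose were the same under the other size factors, DESeq2, no filter on low counts, a limit of 100 genes, all cells and the replicate block. In the entries as deposited, the members called at day 20 went from 4 to 0, and the pathway genes called after light from 4 to 1. That pathway count was 2 with all cells, 2 with no filter, 9 without the 2 libraries under 50 cells, and 2 to 7 with 1 library left out (2 without day 0 replicate 2 or day 7 replicate 2, 7 without day 7 replicate 3). At day 20 against day 7, the replicate block, which the labels' numbers do not justify as a pairing, called 2 members (H2-Aa and H2-Ab1) where the fit without it called 0, and leaving out a library gave 0 to 2, with 2 without day 7 replicate 2. The block changed no other call of a member. Calls over all genes after light were 273, against 64 as deposited, 156 with all cells, 516 without the 2 small libraries and 171 to 443 with 1 library left out. At day 7 they were 376, against 77, 183, 631 and 203 to 533, and at day 20 they were 37, against 1 as deposited. At day 20 against day 7 they were 79, against 0, 12, 134 and 15 to 100, and 52 with no filter. Under the DESeq2 size factors, 17 of 49 calls at day 20 were higher (34.7%), against 17 of 37 (45.9%). Scaling to library totals moved the median log2 change of all genes at day 7 from −0.06 to −0.17, and the changes of the 4 genes there were 4.21 to 5.10.

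The share of positive cells after light minus day 0 was 25.2 points without the 2 small libraries (exact permutation p = 0.0571). With 1 library left out it was 23.6 to 29.5 points, and without day 0 replicate 1 or 2 it was 26.1 or 26.6 (exact permutation p = 0.0714 for both). The level per positive cell after light minus day 0 was 2.39 with a limit of 1 UMI, 1.85 with 3 UMIs, and −4.26 to 0.99 with 1 library left out, positive without day 0 replicate 1 (0.74) or replicate 3 (0.99), and thinning to 1000 UMIs gave no value, because a library had no positive cell. At day 20 minus day 7 the level per positive cell was 2.18 with a limit of 1 UMI (exact permutation p = 0.3) and 4.21 with 3 UMIs (exact permutation p = 0.1). It was 2.52 without thinning and 4.22 with all cells (exact permutation p = 0.2 for both), and 4.15 at 1000 UMIs (exact permutation p = 0.4). Cd74's share after light minus day 0 was 3.43 points as deposited (exact permutation p = 0.0119), 6.05 to 20.99 with 1 library left out, and 20.99 without day 0 replicate 3. This share also moves with that of H2-DM, so these values are no separate evidence on Cd74. Cd74 and the H2-DM genes in positive against negative cells lay at 4.37 to 4.74 and 1.54 to 1.86 with 1 library left out, where 5 libraries cannot give a p below 0.0625. As deposited, the border macrophage (−0.41), dendritic cell (0.36), T and NK cell (0.018) and neutrophil (−0.052) lists turned sign, the dendritic cell list also with a limit of 1 UMI (0.24), and border macrophage genes ranged from −0.45 to 0.40 with 1 library left out, with −0.45 without day 7 replicate 3 and −0.25 without day 20 replicate 1. With 1 library left out, H2-DMa ranged from −0.11 to 0.38 after light, from −0.48 to 0.56 at day 7, from −0.041 to 0.47 at day 20 and from −0.36 to 0.74 at day 20 against day 7. It turned sign without day 0 replicate 1 (−0.08 after light, −0.12 at day 7, −0.041 at day 20), without day 7 replicate 1 (−0.11 and −0.48), without day 20 replicate 3 (−0.01 at day 20, −0.17 for day 20 against day 7), without day 7 replicate 2 (−0.36) and without the 2 small libraries (−0.15). H2-DMb1 passed after light (1.17) and at day 7 (1.62) without day 7 replicate 2, and at day 7 as deposited (0.68). The causes of these shifts were not tested. Alternatives with the 2 small libraries left out, scaling to library totals and the H2-DM and Cd74 comparisons were chosen after seeing the data.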
